A study of Homo sapiens with 6 samples.

Results

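The miR-183, miR-96 and miR-182 cluster was examined in HuCCT1 cells, an established human cholangiocarcinoma (CCA) cell line (HuccT1 in the labels). Its members were taken by name from the microRNA arrays: hsa-miR-183-5p, hsa-miR-96-5p, hsa-miR-182-5p and hsa-miR-183-3p, 4 of the 2555 human miRNA names that the arrays carry. Labelled total RNA was hybridized to 6 arrays of 1 colour, and all cells were taken at 72 h. For 3 arrays the cells had received no TGF-β (0 ng/ml, control), and for the other 3 they had received it at 10 ng/ml. TGF-β is a cytokine that induces epithelial-mesenchymal transition (EMT). Both groups came from the same cell line with no other treatment named. Neither the labels nor the methods say whether the arrays of a group came from separate cultures, so the tests measure the spread between arrays, which may be technical. The question here was whether the cluster could be measured in these cells and whether its signal differed after TGF-β.

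The miRNAs of this cluster are cut from a shared primary transcript, so that hairpins lying close together on the chromosome can give several mature miRNAs at once. From each hairpin 1 arm usually becomes the guide strand, which is loaded into Argonaute and pairs with target mRNAs through its seed, while the other arm is mostly degraded. The cluster is best known from sensory cells of the ear and the eye, where miR-96 is needed for hair cell development, and from carcinomas of epithelial origin, in which miR-182 is often high. MiR-96 and miR-182 are known to act on mRNAs of FOXO transcription factors, and the cluster has been described among the miRNAs that the EMT factor ZEB1 represses, together with the miR-200 family.

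The hairpins lie on the minus strand of human chromosome 7 (GRCh38.p14). MIR183 is at chr7:129774905-129775014, MIR96 at chr7:129774692-129774769 and MIR182 at chr7:129770383-129770492. MIR183 and MIR96 are 135 bases apart, and 4199 bases separate MIR96 from MIR182. The mature sequences below, from RefSeq, are shown because the 5p arms share the middle of their seed and because the results differ between arms. Capitals mark the seed, bases 2 to 8 from the 5′ end.
hsa-miR-183-5p: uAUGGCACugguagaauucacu
hsa-miR-96-5p: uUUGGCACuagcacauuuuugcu
hsa-miR-182-5p: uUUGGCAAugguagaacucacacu
hsa-miR-183-3p: gUGAAUUAccgaagggccauaa
The 3 guide arms, all 5p, have bases 3 to 7 in common (UGGCA), and no seed is shared in full. Counted from the 5′ end, miR-183-5p and miR-96-5p differ within the first 8 bases by A2U, miR-96-5p and miR-182-5p by C8A, and miR-183-5p and miR-182-5p by both A2U and C8A. Set side by side without gaps, miR-183-5p and miR-182-5p were identical at 18 of 22 positions (81.8%), miR-183-5p and miR-96-5p at 13 of 22 (59.1%) and miR-96-5p and miR-182-5p at 12 of 23 (52.2%). MiR-183-3p comes from the opposite arm of its hairpin and has an unrelated seed.

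Detection was decided on each array from its 229 spots named BLANK. A probe was detected when its brightness exceeded the mean of these spots by 2 of their SD. The arrays differed in this background, with a blank mean of 29.5 to 82.3 brightness units and a blank SD of 1.78 to 7.63, and between 327 and 464 human miRNAs were detected per array. Chip 1 held every control array together with TGF-β array 1, and chip 2 held the remaining TGF-β arrays, so chip and treatment were partly confounded. For normalized signals, the blank mean was subtracted, and a factor per array brought the 292 miRNAs detected on all 6 arrays to a median of 25 arbitrary units. On this scale the detection limit of the control group was 1.83, 4.30 and 2.08 in array order (1, 2, 3). In the TGF-β group it was 3.68, 2.09 and 3.85, and values of each array are given in this order below.

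The 4 members fell into 3 classes by detection. MiR-182-5p was detected on 6 of 6 arrays, miR-96-5p on 4 of 6 and the 2 arms of miR-183 on none. MiR-182-5p stood 7.04 to 11.9 SD above the blank mean. MiR-96-5p lay between -0.72 and 3.21 SD, on both sides of the limit. MiR-183-5p lay between -3.30 and -0.94 SD and miR-183-3p between -2.86 and -0.21 SD, below the blank mean on every array. The arms of the other 2 hairpins that are not among the members, miR-96-3p and miR-182-3p, were also below the blank mean on all 6 arrays.

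**Figure D1:**
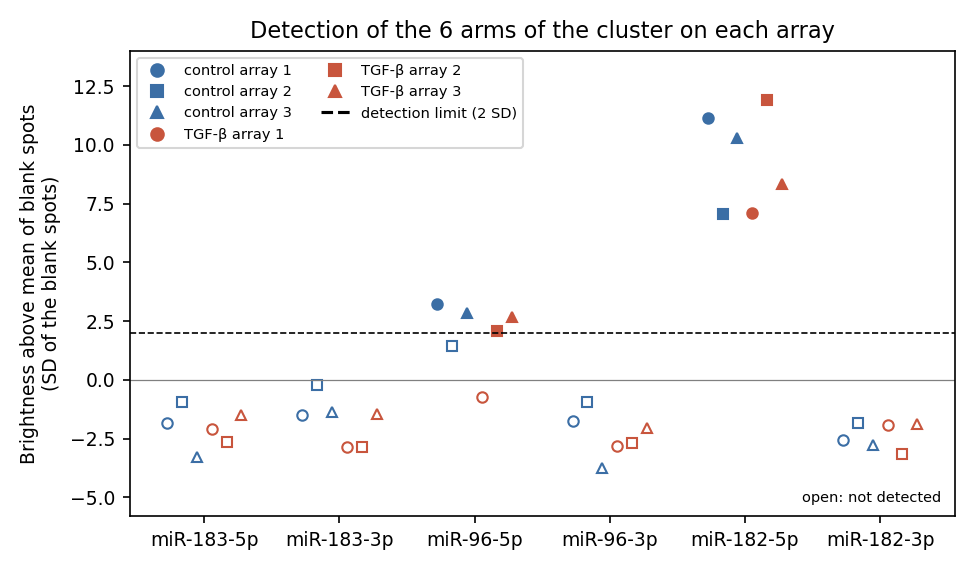
Brightness above the mean of the blank spots, in SD of the blank spots (y axis), for the 6 arms of the 3 hairpins (x axis), 1 point per array. Filled points are above the dashed limit of 2 SD. MiR-182-5p is above it on 6 arrays and miR-96-5p on 4, while the other 4 arms are below 0 on every array.

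In the control group miR-182-5p had a normalized signal of 10.2, 15.1 and 10.7. In the TGF-β group it was 13.1, 12.4 and 16.1. Control array 2 and TGF-β array 3 were the highest of their groups, and the groups overlapped, since control array 2 was above TGF-β arrays 1 and 2. The mean was 12.02 ± 2.71 (SD, n = 3) in control cells and 13.9 ± 1.93 (SD, n = 3) with TGF-β, a ratio of 1.15. On the log2 scale the difference was 0.22 with a standard error of 0.22 (limma adjusted p = 0.99), and its 95% interval ran from -0.29 to 0.73, that is from 0.817-fold to 1.66-fold. A 2-sided exact permutation test of miR-182-5p alone gave p = 0.30, and with 3 arrays a group such a test cannot go below 0.10. The difference was thus within the spread between arrays, and changes of miR-182-5p within that interval in either direction were not resolved.

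Read against all miRNAs, the change of miR-182-5p did not stand out. Tests were run on the 323 miRNAs that every array of 1 group or of both had detected, and of these, 0 (0%) passed an adjusted p of 0.05 in limma. At an unadjusted p under 0.05 there were 21 by limma and 21 by the methods' t-test, and 1 by the methods' t-test after Benjamini-Hochberg adjustment. The number at an unadjusted p under 0.05 varied with the processing, from 7 with each array scaled on its own detected miRNAs to 31 with the replicate number as a block, and from 11 to 41 when 1 array was left out. With local background it was 4, of 72 tested. The groups did not overlap for 32 of the 323, or 9.91%, and miR-182-5p was not among these. The median log2 change of the 323 was 0.01, and 62.8% of them had a smaller change than miR-182-5p in absolute size. The spread of miR-182-5p between arrays of a group, an SD of 0.259 on the log2 scale, was close to the median of 0.294 over the same miRNAs.

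The size of the miR-182-5p change depended on the scaling. On the plain log2 scale the 4 alternative scalings placed it between 0.0042 and 0.86, all above 0. It was below 0 under normexp, a different background correction (-0.075), and in the authors' table (-0.043). That table also differs in which miRNAs count as detected, so its sign cannot be assigned to the scaling. Normexp started from the local background that the scanner recorded beside each spot, and added an offset of 50 units to every signal. Less its local background, the miR-182-5p spot held only -28.0 (TGF-β array 2) to 10.6 units (control array 2). The normexp value is therefore not a reversal of a measured signal, and what set its sign was not tested. The authors' own normalized values also set a median to 25, but over the miRNAs listed on each array, and in them the control group had 27.0, 22.2 and 19.4. The TGF-β group had 17.5, 27.6 and 22. Their means of 22.9 ± 3.84 (SD, n = 3) and 22.4 ± 5.06 (SD, n = 3) give a ratio of 0.978. The exact permutation test of these values gave p = 0.90. In them TGF-β array 1 was the lowest array and control array 1 close to the highest, whereas control array 1 was the lowest under the scaling on shared miRNAs. Relative to the median of all miRNAs tested, which itself lay at -0.27 in the authors' values, the log2 change of miR-182-5p was 0.22 there and 0.21 under the scaling on shared miRNAs. Scaling on each array's own detected miRNAs, on the 75th percentile or not at all left this difference at 0.21. That was fixed in advance, since a factor per array cancels in it. With quantile normalization the difference was 0.23, and with normexp background it was -0.07. Single arrays weighed on the plain log2 change of miR-182-5p. It was 0.42 without control array 2 (limma adjusted p = 0.74) and 0.10 without control array 1 (limma adjusted p = 0.99). Without TGF-β array 3 it was 0.06 (limma adjusted p = 0.96). With the 4 arrays of chip 1 alone, of which 1 had TGF-β, it was 0.07, and with the chip as a block it was 0.14 (limma adjusted p = 0.89).

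**Figure D2:**
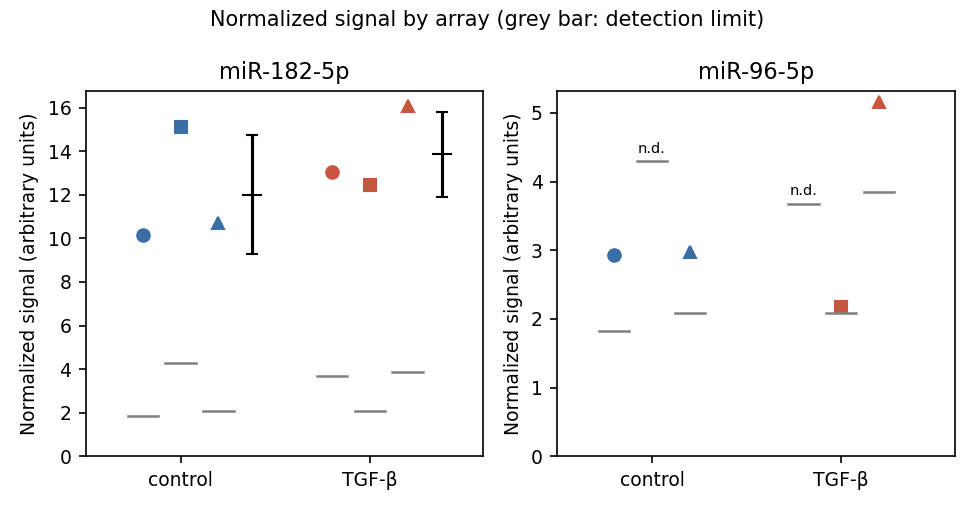
Normalized signal in arbitrary units (y axis) of miR-182-5p (left) and miR-96-5p (right) in the control and TGF-β groups, 1 symbol per array (circle, square and triangle for arrays 1, 2 and 3). Grey bars give each array's detection limit, n.d. marks an array on which the miRNA was not detected, and black bars give the mean ± SD (n = 3) of miR-182-5p, 12.02 ± 2.71 and 13.9 ± 1.93.

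MiR-96-5p, the member whose seed is mutated in a form of inherited deafness, was near the limit of the arrays. Its brightness above the blank mean was 5.75, 9.91 and 5.07 units in the control group, against limits of 3.58, 13.6 and 3.55 units. In the TGF-β group it was -5.46, 10.2 and 10.7 units, against limits of 15.3, 9.79 and 7.97. It was therefore detected on 2 arrays of each group. The 2 arrays without detection, control array 2 and TGF-β array 1, had the largest blank SD of the 6, at 6.81 and 7.63 units. On control array 2 its raw brightness above the blank mean was higher than on control arrays 1 and 3, where it was detected. After scaling it was close to theirs, at 3.13 beside 2.94 and 2.98.

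Where it was detected, the normalized signal of miR-96-5p was 2.94 and 2.98 in the control group (arrays 1 and 3). In the TGF-β group it was 2.17 and 5.15 (arrays 2 and 3). The 2 TGF-β values lay on either side of the control values. MiR-96-5p was not detected on all arrays of either group and so was not among the 323 miRNAs tested. With undetected arrays set to their lowest detected signal its log2 change was 0.09. The filled signals were 4.31 on control array 2 and 4.06 on TGF-β array 1, above every detected value but the 5.15. The 0.09 therefore rested largely on filled and not on measured signals. A fit over the 508 miRNAs detected on at least 1 array, with the same filling, gave this change a standard error of 0.35 (limma adjusted p = 0.99). Left at their own values instead, with at least 1 brightness unit, the undetected arrays brought it to -1.11, because TGF-β array 1 was below the blank mean. In the authors' values it was listed on 5 of 6 arrays, at 7.9, 4.8 and 5.4 in the control group and at 4.8 and 7.1 in the TGF-β group, where array 1 has no value. The lowest value listed on any array there was between 3 and 4.4, so these values too were close to the bottom of the list.

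MiR-183-5p and miR-183-3p gave no signal above the blank spots in either group. The brightness of miR-183-5p was 27.4, 48.4 and 23.7 units in the control group, against blank means of 30.7, 54.8 and 29.5. In the TGF-β group it was 66.4, 63.2 and 36.6 units, against blank means of 82.3, 76.2 and 42.5. For miR-183-3p it was 28.1, 53.4 and 27.1 units in the control group and 60.5, 62.2 and 36.8 units in the TGF-β group. Between 74.5% and 82.6% of human miRNA probes per array were below the blank mean, so these probes lay where most human probes did. The authors' table lists neither arm on any array. With no measured signal, no change with TGF-β can be given for miR-183, and its normalized signal was below the limits of 1.83 to 4.30 given above, which is a bound on signal and not on the presence of the RNA.

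The members of the cluster thus differed in detection. The arrays give no order of abundance between them, because the brightness of different probes depends on the probe as well as on the RNA. A comparison of changes between the guide arms had been planned within arrays, and could not be made since miR-182-5p was the only member detected on all arrays of a group.

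The detection of miR-182-5p rested on the blank spots and was lost with the local background that the scanner recorded beside each spot. At the miR-182-5p spot this local background was 48.7, 92.2 and 37.97 units in the control group and 135, 163 and 70.4 units in the TGF-β group. The spot itself was 50.7, 103 and 47.8 units and 137, 135 and 75.7 units. The local value was between 79.4% and 121% of the spot, and beside the blank spots its mean was 19.6 to 56.1 units. When it was subtracted, none of the 4 members was detected on any array. High local values went along with detection in general: between 81.5% and 94.2% of the detected miRNAs per array had a local value more than 2 SD above that of the blank spots, against 1.03% to 4.04% of the others. The median detected miRNA had a local value of 63.2% to 86.0% of its spot. The brightest spot next to miR-182-5p was that of miR-125a-3p, at 117 to 208 units, while the adjoining miR-182-3p spot stayed at 24.6 to 67.6 units. The part of neighbouring spots in the miR-182-5p signal was not tested.

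**Figure D3:**
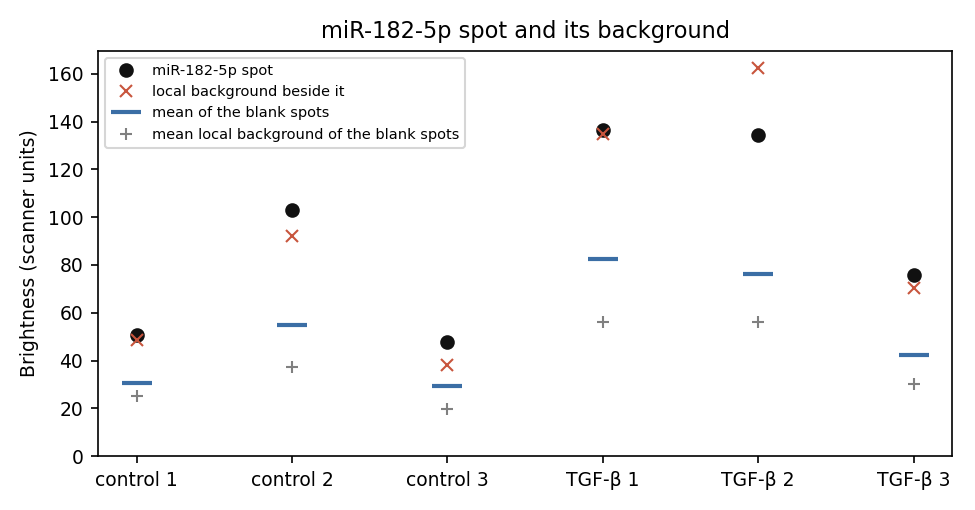
Brightness in scanner units (y axis) of the miR-182-5p spot, of the local background recorded beside it, of the mean of the 229 blank spots and of the mean local background of the blank spots, for each of the 6 arrays (x axis). The spot is above the blank mean on all arrays, and the local background beside it is between 79.4% and 121% of the spot.

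MiRNAs that share a seed with a member were looked up by bases 2 to 8 in the RefSeq sequences, which matched 2246 of the 2555 names on the array and all 6 arms of the cluster. The array carries 1 such relative, miR-1271-5p from chromosome 5, which has the seed of miR-96-5p.
hsa-miR-1271-5p: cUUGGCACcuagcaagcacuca
It was not detected on any array (-3.37 to -0.74 SD) and is not listed in the authors' table. Among the names with a sequence, no other miRNA had the seed of miR-96-5p, and none had that of miR-182-5p, miR-183-5p or miR-183-3p.

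Other miRNAs of epithelial cells were present. A list of 8 held the 5 members of the miR-200 family, which restrain ZEB1 and ZEB2, and also miR-205-5p, miR-203a and miR-375. Of these, 5 were detected on all 6 arrays, miR-429 on 5, and miR-203a and miR-375 on none. MiR-200c-3p stood 108 to 272 SD above the blank mean and miR-205-5p 46.1 to 121 SD. Of the 6 tested, 0 passed the adjusted p in either direction. The median log2 change of these 6 was 0.09 beside 0.01 over all 323 miRNAs. With each array scaled on its own detected miRNAs the medians were -0.13 and -0.20. Such a scaling shifts all log2 changes by the same amount, so the difference between the medians could not change.

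Within that list, miR-200c-3p was 210 ± 19.1 (SD, n = 3) in control cells and 276 ± 7.91 (SD, n = 3) with TGF-β, without overlap of the groups, at a log2 change of 0.40 (limma adjusted p = 0.70). MiR-200b-3p was 90.9 ± 10.8 (SD, n = 3) and 111 ± 6.53 (SD, n = 3), also without overlap, at a log2 change of 0.30 (limma adjusted p = 0.89). Groups without overlap were thus seen for 2 of the 6 tested, beside 32 of all 323 miRNAs (9.91%). The latter share is near the rate of 0.10 for random labels given above. MiR-141-3p had the lowest log2 change of the list, -0.65, with a standard error of 0.46. The log2 change of miR-182-5p, 0.22, was inside the range of -0.65 to 0.40 of the list.

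On a list of 8 miRNAs known to respond to TGF-β or to mark EMT, all were detected on 6 of 6 arrays and 0 passed the adjusted p. Their median log2 change was 0.20 beside 0.01 over all 323 miRNAs, and 7 of 8 had a log2 change above 0, while 48.9% of the 323 were below 0. With each array scaled on its own detected miRNAs the median was -0.02 beside -0.20 over all, and 4 of 8 were above 0. MiR-181a-5p and miR-181b-5p, which are known to rise with TGF-β in several cell types, had the highest, at 0.77 each (limma adjusted p = 0.43 for both). MiR-222-3p followed with 0.45, and miR-21-5p had -0.10. This list was put together with earlier results of these arrays known, so its direction is not independent evidence.

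**Figure D4:**
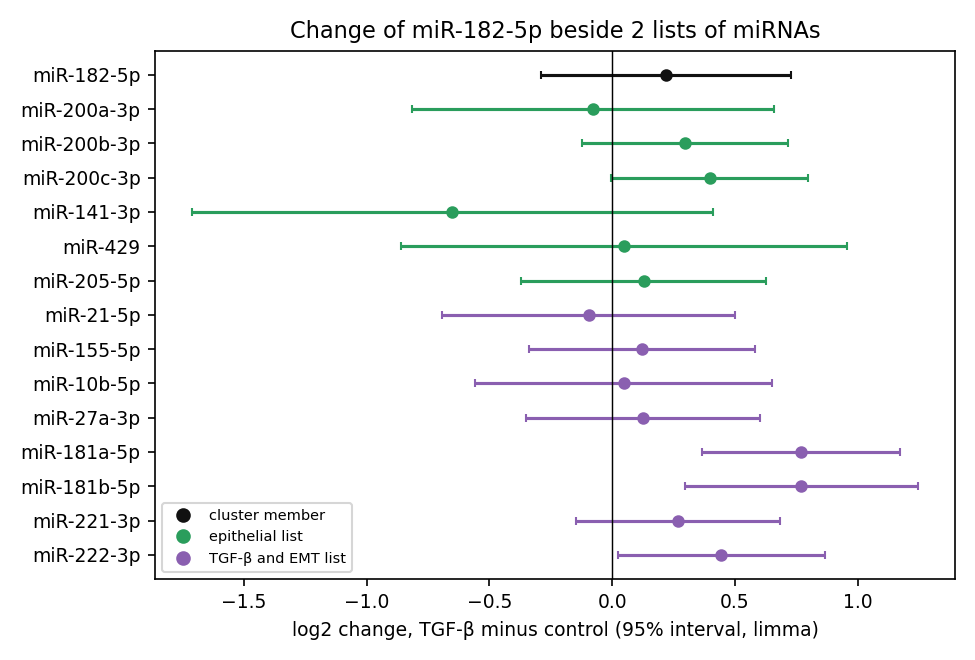
Log2 change, TGF-β minus control, with its 95% interval from limma (x axis), for miR-182-5p and the tested miRNAs of the epithelial list and of the list of TGF-β and EMT miRNAs (y axis). The interval of miR-182-5p, -0.29 to 0.73, spans 0, as do those of all 6 epithelial miRNAs. In the TGF-β and EMT list the unadjusted intervals of miR-181a-5p, miR-181b-5p and miR-222-3p lie above 0, and the others span it. None of the 15 changes passed adjustment.

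Markers of other cells were nearly absent. Of 7 miRNAs of blood and stroma, 6 were not detected on any array (miR-451a, miR-142-3p, miR-143-3p, miR-145-5p, miR-199a-3p and miR-214-3p), and miR-223-3p was detected on 1, at 6.44 SD above the blank mean. The hepatocyte miRNA miR-122-5p was not detected on any array either. Judged against the blank spots, the labelled cell type, of epithelial origin, was thus matched by its miR-200 family and miR-205-5p and not by miR-203a and miR-375. With local background subtracted instead, only 1 miRNA of the epithelial list was detected widely enough to be tested.

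Over the 6 arrays, the miRNAs whose log2 signal followed miR-182-5p most closely, among 291 others detected on all arrays, were miR-103a-3p (Pearson r = 0.905), miR-6076 (0.892), miR-4261 (0.891), miR-107 (0.888) and let-7f-5p (0.881). The median r over the 291 was 0.087. These values describe 6 arrays that share 1 scaling each, and the best of 291 is high by selection. The followed variation was small for some of them, with an SD of 0.111 on the log2 scale for miR-107 and 0.149 for miR-103a-3p against 0.261 for miR-182-5p. MiR-107 is spotted in the same block of the array as miR-182-5p. The log2 changes of these 5 miRNAs with TGF-β lay between 0.05 and 0.27 (limma adjusted p = 0.99 for each).

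**Figure D5:**
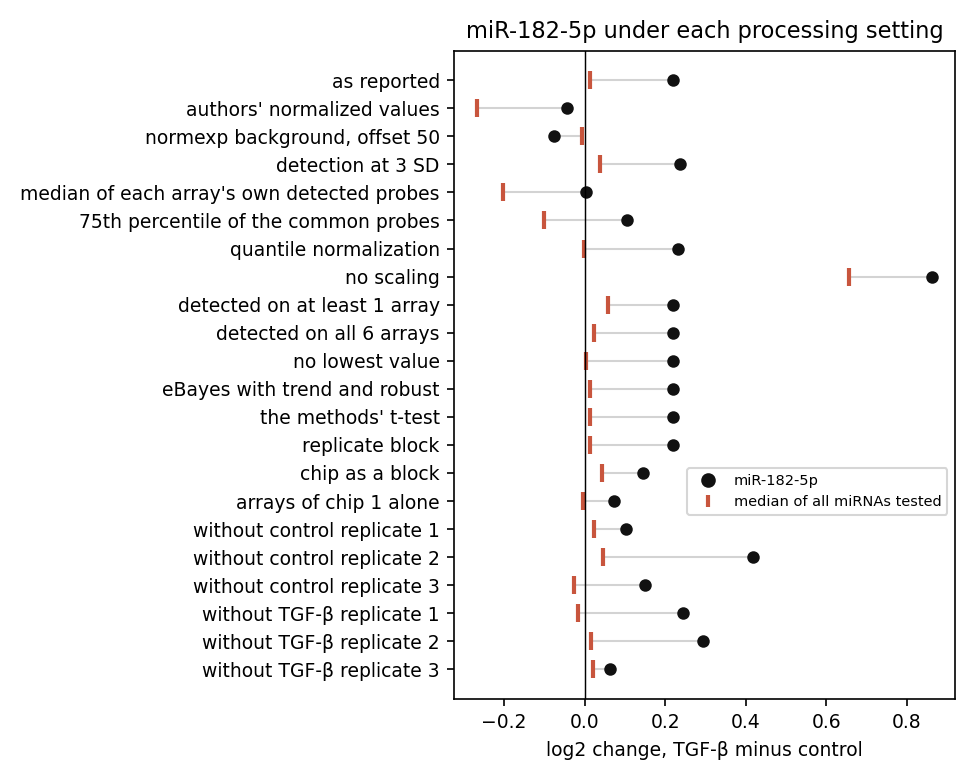
Log2 change of miR-182-5p, TGF-β minus control (black points, x axis), beside the median log2 change of all miRNAs tested (red marks), for the reported setting and each alternative in which it was tested (y axis). The points lie between -0.08 with normexp background and 0.86 with no scaling. Where only the factor per array differs, the point and the median move by the same amount by construction.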

How the data were processed

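Cy5-labelled total RNA of 6 samples was hybridized to 3D-Gene Human miRNA Oligo chips and read with the maker's scanner and extraction software (versions not given in the sources used here). The authors deposited the median intensity of every spot and of its local background, on a linear scale and without normalization, and a table of normalized intensity with a median of 25 per array, in which undetected miRNAs are empty. Human probes flagged at any gain of the scanner, 0 to 2 per array, were left out, and control spots were not tested.

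Blank mean subtraction, the 2 SD limit and the scaling are described with the results. Before log2, an undetected miRNA received its array's lowest detected signal. Groups were compared with limma 3.58.1 in R 4.3.3 (lmFit and eBayes, no block) over 323 miRNAs with Benjamini-Hochberg adjustment, after tests on simulated data. The methods' t-test was run as an alternative. Groups and replicate numbers came from the sample titles. Deviations of same-numbered arrays of both groups had r = 0.12, 0.24 and 0.33 for numbers 1, 2 and 3. These were taken across 322 miRNAs, which are not independent. No such value is given for differently numbered arrays, so these do not show that the number pairs arrays. The number was used as a block in an alternative, and what it marks is not stated. The precision is limited by the number of arrays.

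The named miRNAs were the members, the other arms of their hairpins, seed relatives, 4 lists (epithelial, TGF-β and EMT, blood and stroma, hepatocyte) and the 5 miRNAs most like the cluster. Members and lists were chosen with earlier results of these data known. Alternatives were the authors' values, normexp (offset 50), local background, 3 SD, 4 scalings, 2 filters, undetected signals left as measured (no lowest value), eBayes with trend and robust, the methods' t-test, a block for replicate or for chip, the arrays of chip 1, and omission of single arrays.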

Additional observations from a re-analysis of the deposited data

How the results depend on the processing

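The log2 change of miR-182-5p was 0.22. Of 15 other settings, 6 left the value as it was (both filters, no lowest value, trend and robust, the methods' t-test and the replicate block), and in the other 9 it was above 0 in 7. It was -0.043 in the authors' values (limma adjusted p = 0.98) and -0.075 with normexp background (limma adjusted p = 0.998). The normexp value rests on the local background and an added offset, as described with the results. The highest value, 0.86, came with no scaling, where the median of all miRNAs tested was 0.66. Leaving out single arrays gave 0.063 to 0.419. It passed the adjusted p in none of these settings, with adjusted p values from 0.459 to 0.999 (limma throughout, except where the methods' t-test took its place); 1 of these, chip 1 alone, has 1 TGF-β array, whose spread is assumed to be that of the controls. With the replicate block it stayed at 0.22 (limma adjusted p = 0.97), and the block changed no call.

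The number of members detected on all arrays was 1, and 0 with local background, where miR-182-5p and miR-96-5p were detected on 0 arrays. At 3 SD, miR-96-5p was detected on 1 array and miR-182-5p on 6. The log2 change of miR-96-5p was 0.09, and 0.73 with no scaling, -1.11 with no lowest value, and between -0.21 and 0.12 in 10 other settings. All of these but the -1.11 included filled signals for arrays without detection. Leaving out arrays gave -0.22 to 0.45. It entered 4 of these fits (the authors' values, detection on at least 1 array, and without control array 2 or TGF-β array 1), with adjusted p from 0.924 to 0.993 in limma. The median of the members tested is the value of miR-182-5p. No member passed the adjusted p in any setting. The number of miRNAs past it was 0, and 3 with local background, 1 with the methods' t-test and 0 to 1 with arrays left out, the 1 without TGF-β array 3. The median of the epithelial list was 0.09, and -1.44 with local background, where 1 of its miRNAs was tested, and 0.73 with no scaling. It lay below the median of all miRNAs tested in 4 of 16 other settings (normexp, local background, the chip block and chip 1 alone), and was -0.12 to 0.21 with arrays left out. Differences between members within arrays could not be computed, and miR-183 had no value in any setting. Array number and signal near the blank level limit these values; the cause of the shifts was not tested.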
